A study of Mus musculus with 9 samples.

Results

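The nuclear-encoded subunits of respiratory complexes II, III, IV and V, together with cytochrome c, were examined in nuclei of mouse hippocampal pyramidal cells. Members were chosen by gene symbol: the 4 succinate dehydrogenase genes (Sdha to Sdhd), symbols that begin with Uqcr, Cyc1, Cycs, symbols of the Cox4i, Cox5, Cox6, Cox7 and Cox8 families, and symbols that begin with Atp5, leaving out annotated copies marked -ps. This gave 49 of the 31052 genes in the table: 4 in complex II, 9 in complex III, 1 for cytochrome c, 17 in complex IV and 18 in complex V. Pyramidal neurons were imaged in living mice during spatial navigation and sorted by their activity into place cells, active when the animal is at a particular spot, and silent cells. Their nuclei were then marked with light and collected, and polyadenylated nuclear RNA was amplified and sequenced. There were 5 place libraries and 4 silent libraries, all of the genotype labelled WT, from hippocampus, with the cell type labelled hippocampal pyramidal cell. The labels name no treatment that separates the groups, and the sources used here give no time, age or number of nuclei per library.

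The respiratory chain sits in the inner mitochondrial membrane and passes electrons from nutrients to oxygen. Complex II (succinate dehydrogenase) feeds electrons from succinate into ubiquinone, complex III passes them to the mobile carrier cytochrome c, and complex IV (cytochrome c oxidase) hands them to oxygen. Complex V, the ATP synthase, uses the proton gradient that complexes III and IV help to build. Complex II is encoded entirely by nuclear genes, while complexes III, IV and V also need subunits made from mitochondrial DNA. In neurons this pathway supplies much of the ATP that ion pumping and synaptic transmission consume.

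Levels are given as RPM, reads per 1000000, that is whole reads recovered from the deposited signal, scaled by the recovered reads of the library, so that each library has the same total. Depth was 15.3 to 22.0 times 1000000 recovered reads in place libraries and 14.0 to 22.4 times 1000000 in silent libraries. A count of 3 reads, taken as the floor, was 0.134 to 0.214 RPM. Replicate numbers only name the libraries. Each title gives its library a mouse designation of its own, but the labels do not say outright that these are different animals; if they are not, p-values measure only the spread between these libraries. Excitatory neuron markers were abundant throughout: Camk2a, a kinase subunit of excitatory synapses, stood at 803 to 1420 RPM over the 9 libraries, and 7 CA1 pyramidal markers summed to 917 to 1510 RPM in place and 1070 to 1340 RPM in silent libraries. Oligodendrocyte and astrocyte markers had reads in every library. The 9 oligodendrocyte markers summed to 1370, 1990, 3200, 291 and 190 RPM in place replicates 1 to 5 and to 539, 209, 343 and 120 RPM in silent replicates 1 to 4. Place replicate 3 also had the highest astrocyte marker sum (2370 RPM, against 173 to 473 RPM in the other libraries) and the highest sum of mitochondrially encoded subunits (1430 RPM, against 142 to 400 RPM). The interneuron marker sum was highest in silent replicate 3 (767 RPM, against 27.3 to 208 RPM in the other libraries), with Vip at 644 RPM. That of oligodendrocyte precursor markers was highest in silent replicate 1 (241 RPM, against 0.0 to 103 RPM in the other libraries). Silent replicate 1 had the fewest genes with a read, 14176, against 15515 to 20977 in the others.

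Promoter sequence was examined first, because respiratory genes are known to be controlled by a shared set of factors that bind near the start site. NRF1, the E26 transformation-specific (ETS) factors (among them GABP, also called NRF2), YY1, the estrogen-related receptor ESRRA and SP1 are the factors usually named. RefSeq promoters (build GRCm38.p6, 250 bases before to 50 after the start) were found for 35 of the 49 members. The palindromic NRF1 consensus, with any base at its free position, was in 10 of these 35 promoters (28.6%), against 4.6% of all 32851 promoters in the table and 6.38% of the 21262 protein-coding ones. The ETS letters CCGGAAG were in 12 (34.3%, against 8.86% and 11.6%), the YY1 letters AAGATGGC in 3 (8.57%, against 2.75% and 3.05%) and the ESRRA letters TCAAGGTCA in 2 (5.71%, against 0.423% and 0.334%). The SP1 letters GGGCGG were in 14 (40.0%), against 35.7% of all and 46.2% of protein-coding promoters. Both strands were searched, and none of the patterns contains another. The NRF1 letters were in the promoters of Sdha and Sdhd in complex II, Uqcrc1 in complex III, Cox6a1 in complex IV and 6 complex V genes. Members with and without the NRF1 letters had median log2 folds, place minus silent, of -0.15 (10 genes) and -0.37 (22 genes). For the ETS letters these medians were -0.26 (12 genes) and -0.28 (20 genes), and for SP1 -0.015 (12 genes) and -0.413 (20 genes). For YY1 they were 0.254 (3 genes) and -0.327 (29 genes), and for ESRRA 0.236 (2 genes) and -0.265 (30 genes). None of these differences was tested.

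The 250 bases before the start are shown for Atp5me and Atp5f1e, the complex V members described below for their small p-values whose upstream window held the NRF1, ETS, YY1 or ESRRA pattern; SP1 letters are not marked. Capitals mark the NRF1 letters in Atp5me, which begin 50 bases before the start, and the ETS letters in Atp5f1e, read on the other strand, which begin 102 bases before it. Both genes lie on the minus strand, and the sequences run 5′ to 3′ on that strand (Atp5me at chr5:108434400-108434649, listed there as Atp5k, and Atp5f1e at chr2:174464102-174464351, listed there as Atp5e).
Atp5me: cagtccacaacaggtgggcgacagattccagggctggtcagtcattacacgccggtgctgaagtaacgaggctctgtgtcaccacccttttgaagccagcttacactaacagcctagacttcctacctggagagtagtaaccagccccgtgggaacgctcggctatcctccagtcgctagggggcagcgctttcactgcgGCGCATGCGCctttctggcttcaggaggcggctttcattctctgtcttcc
Atp5f1e: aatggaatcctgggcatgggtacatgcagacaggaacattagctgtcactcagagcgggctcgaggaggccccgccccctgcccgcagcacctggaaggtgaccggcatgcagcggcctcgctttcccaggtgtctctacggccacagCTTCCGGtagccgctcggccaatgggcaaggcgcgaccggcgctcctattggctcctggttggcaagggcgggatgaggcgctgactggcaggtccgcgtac
Both stretches end at the base before the annotated start. A match to these letters is a description of the sequence, and binding was not measured.

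Transcripts of complexes III and IV stood lower in place than in silent libraries when summed by complex, those of complexes II and V overlapped, and no single member passed the test. The 44 members tested had at least 1 RPM in at least 4 libraries, and all 44 had reads in all 9 libraries. By limma with Benjamini-Hochberg adjustment over 14142 genes, 0 of 44 members were past an adjusted p of 0.05 (0.0% of all genes tested, 0 of 14142), and the smallest adjusted p among them was 0.895. At an unadjusted limma p under 0.05 there were 5 members (Atp5me, Atp5mk, Cox7c, Cox7b and Uqcr10), all with the lower mean in place (1.33% of all genes tested), and 0 with the higher mean in place (4.14%). In 3 members, Atp5me, Atp5mk and Cox4i1, every place library was below every silent library (0.629% of all genes), and in 0 members was the order reversed (1.22%). The log2 fold was below 0 in 33 members and above 0 in 11 (below 0 in 42.7% of all genes). The members' median log2 fold was -0.20, against 0.13 for all genes. Without place replicate 3 and silent replicates 1 and 4, the 3 libraries that an earlier account of these data set apart, 28 members were below 0 and 16 above. Their median was then -0.15 against 0.01 for all genes, a gap of -0.16 in place of -0.33.

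**Figure D1:**
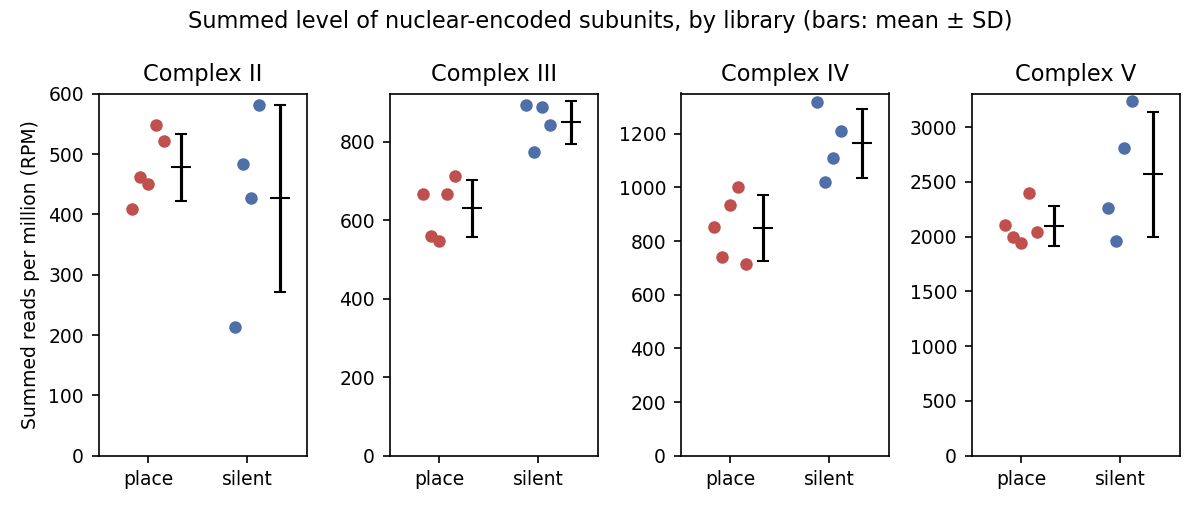
Summed RPM of the nuclear-encoded subunits of complexes II, III, IV and V (vertical axes, each from 0) in the 5 place and 4 silent libraries (points), with the group mean and SD beside them. In complexes III and IV the highest place library (713 and 1000 RPM) was below the lowest silent library (775 and 1020 RPM), while complexes II and V overlapped.

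The summed level of all 49 members was 4100, 3780, 3900, 4640 and 4010 RPM in place replicates 1 to 5 and 4690, 4260, 5250 and 5930 RPM in silent replicates 1 to 4. These sums were 0.378% to 0.593% of a library's reads. Place libraries averaged 4090 ± 333 RPM (SD, n = 5) and silent libraries 5030 ± 725 RPM (SD, n = 4), and place replicate 4 lay above silent replicate 2. In bulk libraries such as these, fewer cells of a type and less RNA per cell cannot be told apart. The only genes past the threshold in any alternative described below were the sex-linked Ddx3y, Eif2s3y and Xist. The sex of the animals may therefore not be balanced between the groups, and its part in the sums and folds was not tested.

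The complex III sum was 667, 560, 547, 666 and 713 RPM in place replicates 1 to 5 and 895, 775, 888 and 843 RPM in silent replicates 1 to 4. That of complex IV was 854, 739, 935, 1000 and 715 RPM in place and 1320, 1020, 1110 and 1210 RPM in silent libraries. Neither complex overlapped between the groups, although in complex IV the nearest libraries were close together. The ratio of the group means was 0.742 for complex III and 0.729 for complex IV, and the order of the groups was the same with TMM and median-of-ratios scaling. These are sums over members, and no test was made of them. The 6 excitatory neuron markers summed to 2330 to 2990 RPM in place and 2760 to 3470 RPM in silent libraries, and the 9 oligodendrocyte markers to 190 to 3200 RPM and 120 to 539 RPM. The part of either in the difference was not tested. Complex V summed to 2110, 2000, 1940, 2400 and 2040 RPM in place and 2260, 1960, 2810 and 3240 RPM in silent libraries (ratio 0.817), with silent replicates 1 and 2 inside the place range. Complex II summed to 409, 462, 450, 548 and 521 RPM in place and 214, 483, 427 and 582 RPM in silent libraries (ratio 1.12), where silent replicate 1 was the lowest of all 9.

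**Figure D2:**
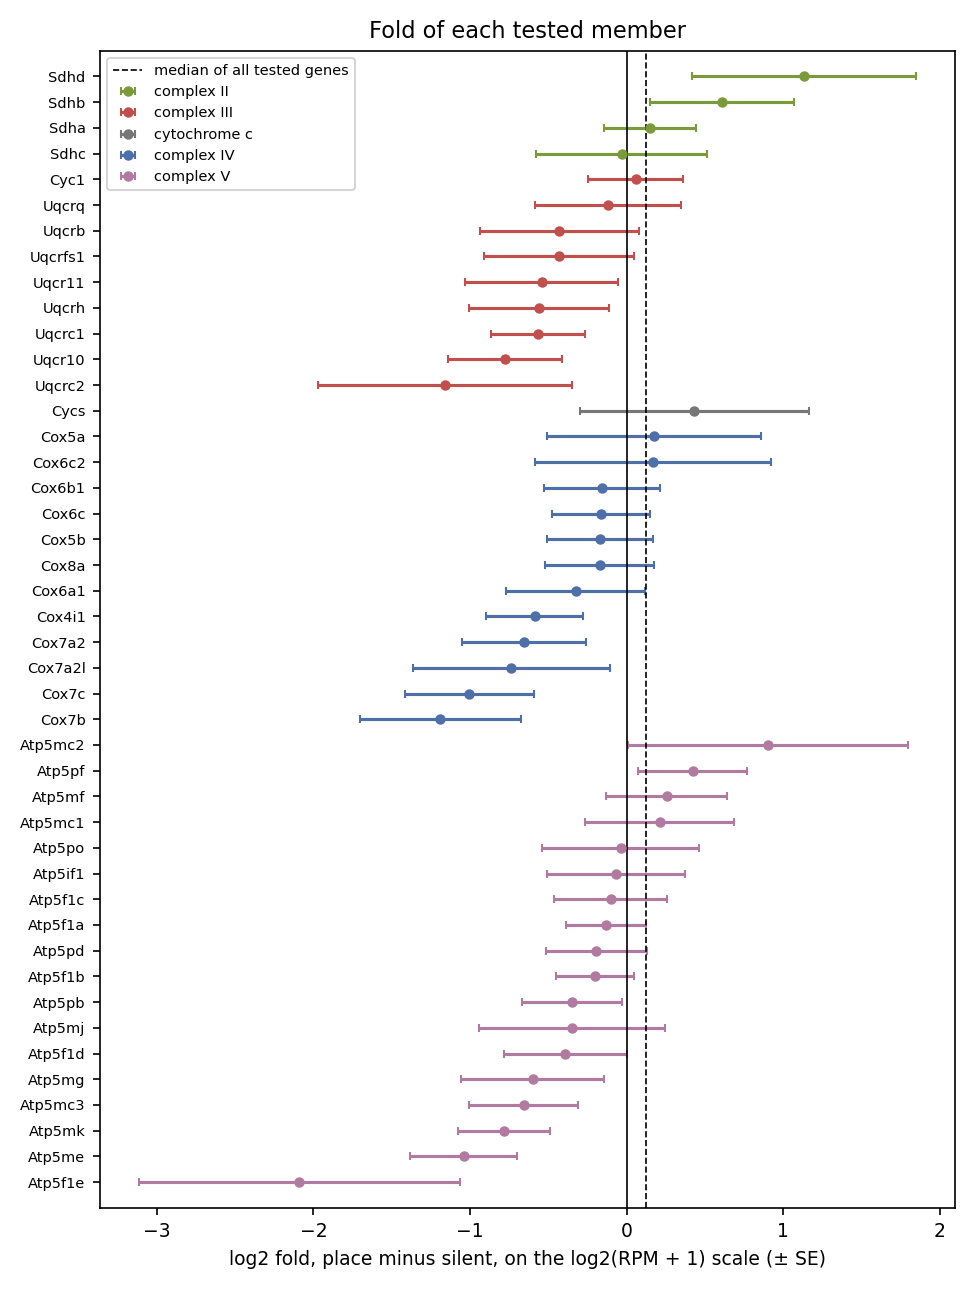
Log2 fold, place minus silent, on the log2(RPM + 1) scale (horizontal axis) for each of the 44 tested members, grouped by complex, with bars of 1 SE. The solid line is 0 and the dashed line the median of all genes tested (0.13). Of 9 complex III members 8 lie below 0, of 12 complex IV members 10, of 18 complex V members 14 and of 4 complex II members 1.

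By complex, the median log2 fold was 0.38 in complex II (4 genes, 1 below 0), -0.54 in complex III (9 genes, 8 below 0), -0.25 in complex IV (12 genes, 10 below 0) and -0.20 in complex V (18 genes, 14 below 0). The complex II median depended on silent replicate 1: without it the median was 0.10, and without silent replicate 4 it was 0.58. Complex IV had medians of -0.39 without silent replicate 1 and -0.40 without silent replicate 2, but -0.17 without place replicate 5 and -0.22 without place replicate 2. In complex V the median was -0.11 without silent replicate 4, -0.12 without place replicate 3 and -0.34 without silent replicate 2. No library left out alone moved the complex III median by more than 1.5 times (-0.60 to -0.41). Without the 3 libraries set apart the medians were 0.29 in complex II, -0.36 in complex III, -0.25 in complex IV and -0.07 in complex V. With array weights, which give less weight to libraries that vary more, the complex V median was -0.06. A covariate for genes detected gave a complex II median of 0.20, and quantile normalisation a complex IV median of -0.42.

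The precision of single members was limited. The 95% interval of the log2 fold lay within 1 on either side of 0, a doubling or halving, in 11 of 44 members. It reached below -1 in 27 members and above 1 in 11, and it excluded 0 in 5. Among replicates the median coefficient of variation of the 44 members was 30.3% in place and 34.2% in silent libraries. It was 38.3% and 46.0% for the 2876 genes between the members' lower and upper quartiles of level (50.2 to 118 RPM). Levels were matched only in part, since members outside that range were counted among the 44. The 2876 genes also include the members within the range. Atp5pd, in the peripheral stalk of the ATP synthase, had the lowest coefficient of variation in place (13.7%) and Cox4i1 in silent libraries (17.2%), while Atp5f1e (86.9%) and Cycs (84.7%) had the highest. Silent replicate 4 was the highest library for 14 of the 44 members, against 14.9% of all genes tested, and silent replicate 3 for 9, against 11.1%. Silent replicate 1 was the lowest library for 9 members, against 21.0% of all genes.

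Levels of different genes were compared per kilobase of exon for the 41 tested members with a known exon length. The highest means over the 9 libraries were those of Cox6b1 (183 ± 69.6 RPM per kilobase, SD, n = 9), Cox8a (183 ± 57.9), Atp5me (180 ± 87.1) and Uqcr10 (165 ± 61.0), 4 short genes whose ranges overlapped widely. Next came Cox6a1 (117 ± 50.5) and the ATP synthase subunits Atp5f1a (114 ± 29.5) and Atp5f1b (111 ± 30.8). Cycs (8.56 ± 5.52), Cox6c2 (6.61 ± 3.49) and Atp5mc2 (1.86 ± 1.58) were the lowest. The median per kilobase was 33.8 RPM for complex II, 54.6 for complex III, 71.2 for complex IV and 43.3 for complex V.

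**Figure D3:**
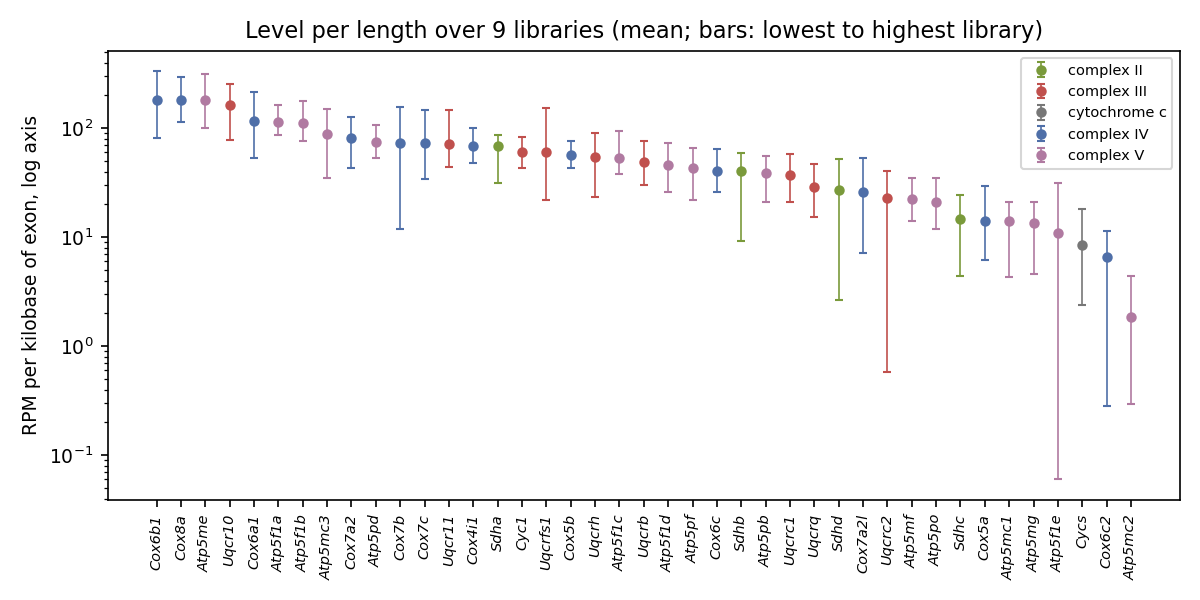
Mean RPM per kilobase of exon (vertical log axis) of the 41 tested members with an exon length, ordered from high to low, with bars from the lowest to the highest of the 9 libraries. Complex IV members run from 183 (Cox6b1) to 6.61 and complex V members from 180 to 1.86 (Atp5mc2). Complex III members run from 165 to 23.1 and complex II members from 68.5 to 14.7. Cytochrome c is 1 gene, at 8.56, and most neighbours overlap.

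The log2 folds were also set beside exon length. This is the union of all annotated exons of a gene, which can be longer than any single transcript. The 21 members with an exon length of at most 1.83 kilobases had a median log2 fold of -0.43 (18 below 0), and the 20 longer ones -0.07 (12 below 0). Over all genes the median was 0.17 for the 4574 shortest (up to 3.04 kilobases), 0.12 for the next 4570 (up to 5.75) and 0.10 for the 4572 longest. The 29 members among the shortest genes had a median of -0.39 and the 11 of middle length -0.03; the 1 member among the longest, Atp5mg, had -0.60. Whether length had a part in the members' folds was not tested.

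In complex II all 4 genes overlapped between the groups, and 3 of 4 log2 folds were above 0. Sdha, the flavoprotein that oxidises succinate, stood at 270, 263, 216, 361 and 337 RPM in place replicates 1 to 5 and at 130, 318, 297 and 353 RPM in silent replicates 1 to 4. Sdhb, the iron-sulfur subunit that carries electrons onward, stood at 68.5, 134, 130, 108 and 76.5 RPM in place and at 20.8, 83.3, 92.0 and 110 RPM in silent libraries. For both genes silent replicate 1 was far below the rest, and the other 8 libraries overlapped. The log2 folds were 0.15 ± 0.30 (SE) for Sdha and 0.61 ± 0.46 for Sdhb, with limma adjusted p of 0.967 and 0.900. Without silent replicate 1 they were -0.18 and 0.08, so the sign of Sdha rested on that library.

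The membrane anchors of complex II, which hold the ubiquinone site, differed from each other. Sdhd stood at 28.1, 34.2, 44.9, 33.8 and 64.4 RPM in place and at 3.28, 26.4, 23.5 and 39.1 RPM in silent libraries. Sdhc stood at 42.6, 30.8, 59.0, 45.9 and 42.8 RPM in place and at 60.6, 54.6, 14.3 and 79.6 RPM in silent libraries. The lowest Sdhd level was again in silent replicate 1, but Sdhc was not low there; its lowest library was silent replicate 3. The Sdhd log2 fold was 1.13 ± 0.72 (SE; limma adjusted p = 0.895), and 0.43 without silent replicate 1. That of Sdhc was -0.03 ± 0.55 (adjusted p = 0.995), and its sign changed with the library left out (-0.56 to 0.25). In silent replicate 1 the complex IV sum was 6.16 times the complex II sum, against 1.37 to 2.60 times in the other 8 libraries, a ratio that no scaling of libraries can alter.

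In complex III, 8 of 9 members had log2 folds below 0. Uqcr10, a small subunit beside cytochrome c1, stood at 110, 54.1, 44.8, 75.1 and 84.8 RPM in place and at 141, 103, 149 and 99.4 RPM in silent libraries. Only place replicate 1 reached the silent range. The group means were 73.8 ± 25.9 (SD, n = 5) and 123 ± 25.4 RPM (SD, n = 4), and the log2 fold was -0.78 ± 0.37 (SE; 95% interval -1.54 to -0.01; limma adjusted p = 0.895). The core subunits Uqcrc1 and Uqcrc2 face the matrix and are related to mitochondrial processing peptidases. Uqcrc1 stood at 142, 105, 86.6, 147 and 148 RPM in place and at 132, 189, 239 and 186 RPM in silent libraries, with 1 silent library inside the place range. Its log2 fold was -0.57 ± 0.30 (limma adjusted p = 0.895).

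Uqcrc2 stood at 53.7, 74.3, 1.46, 52.6 and 50.6 RPM in place and at 31.4, 95.1, 69.0 and 103 RPM in silent libraries. Place replicate 3 was far below all others, and its log2 fold of -1.16 ± 0.81 (limma adjusted p = 0.899) was -0.25 without that library. Cyc1, the haem-bearing cytochrome c1 that reduces cytochrome c, stood at 115, 108, 139, 117 and 180 RPM in place and at 155, 92.9, 134 and 124 RPM in silent libraries. It was the only complex III member above 0 (log2 fold 0.06 ± 0.30, limma adjusted p = 0.989), with the groups mixed. The other 5, the Rieske iron-sulfur protein Uqcrfs1, the hinge protein Uqcrh, and the small subunits Uqcrb, Uqcrq and Uqcr11, had folds from -0.56 (Uqcrh) to -0.12 (Uqcrq) and overlapped between the groups. Cytochrome c itself (Cycs), which shuttles electrons to complex IV, stood at 61.6, 14.6, 24.3, 26.9 and 29.2 RPM in place and at 8.05, 23.0, 15.8 and 58.5 RPM in silent libraries. Each group held 1 library near 60 RPM, and the log2 fold of 0.43 ± 0.73 (limma adjusted p = 0.958) was 0.01 without silent replicate 1 and 0.92 without silent replicate 4.

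**Figure D4:**
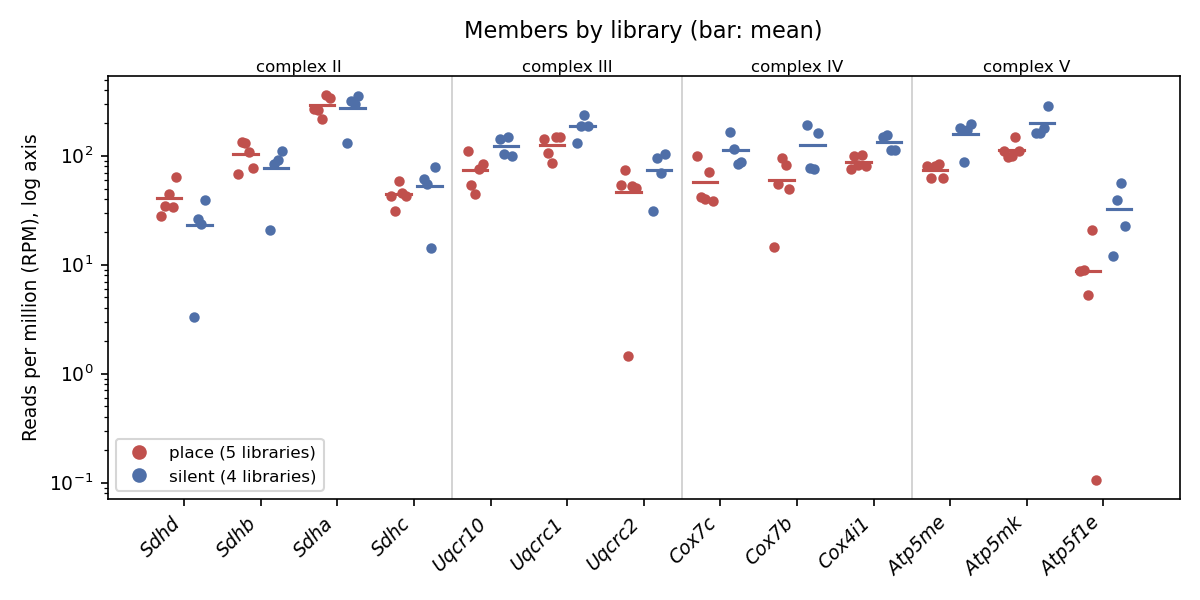
RPM (vertical log axis) of the 4 complex II genes and, for complexes III, IV and V, the 3 members with the smallest p, in the 5 place libraries (red) and 4 silent libraries (blue); each point is a library and each bar a group mean. Cox4i1, Atp5me and Atp5mk are the 3 whose groups do not overlap; the lowest points belong to silent replicate 1 (Sdhd), place replicate 3 (Uqcrc2) and place replicate 5 (Atp5f1e).

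In complex IV, 10 of the 12 members tested had log2 folds below 0. Cox7c, a small subunit around the catalytic core, stood at 98.7, 41.9, 40.0, 70.6 and 38.3 RPM in place and at 165, 115, 84.3 and 87.6 RPM in silent libraries, where only place replicate 1 entered the silent range. Its log2 fold was -1.01 ± 0.41 (SE; 95% interval -1.87 to -0.14; limma adjusted p = 0.895). Cox7b, another small subunit, stood at 14.4, 55.2, 96.1, 82.7 and 49.2 RPM in place and at 191, 77.2, 75.6 and 163 RPM in silent libraries. Silent replicates 1 and 4 stood above all others and place replicate 1 was the lowest. The log2 fold of Cox7b was -1.19 ± 0.51 (limma adjusted p = 0.895), and -0.76 without place replicate 1.

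Cox4i1, the common form of subunit 4, stood at 75.0, 99.6, 81.9, 101 and 79.8 RPM in place and at 149, 156, 113 and 113 RPM in silent libraries. Every place library was below every silent library, with a log2 fold of -0.59 ± 0.31 (SE; limma adjusted p = 0.895). Cox6c, the complex IV member with the most reads, stood at 179, 91.9, 144, 149 and 124 RPM in place and at 231, 142, 113 and 139 RPM in silent libraries. Its groups were mixed, with a log2 fold of -0.16 ± 0.31 (limma adjusted p = 0.966) that was 0.04 without silent replicate 1. The matrix-side subunits Cox5a and Cox5b had log2 folds of 0.17 and -0.17.

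Several complex IV subunits exist as paralogs, of which 1 is widely used and another is known from heart and skeletal muscle, lung or testis. Cox6a1 stood at 68.4, 56.4, 98.1, 93.9 and 39.5 RPM in place and 101, 37.2, 92.9 and 149 RPM in silent libraries, while its muscle paralog Cox6a2 had 61 reads in place replicate 2 and 0 in the other 8. Cox6b1 stood at 109, 101, 99.3, 147 and 129 RPM in place and 58.0, 143, 142 and 237 RPM in silent libraries, and its testis paralog Cox6b2 had 18 reads in silent replicate 2, 9 in silent replicate 3 and 0 elsewhere. The alternative subunit 4, Cox4i2, had 103 reads in silent replicate 1, 1 each in place replicate 3 and silent replicate 3, and 0 elsewhere. The common forms were thus present in every library, and the restricted ones had reads in 1 to 3 libraries. None of these restricted forms was tested.

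Among the subunit 7a genes, Cox7a2 stood at 53.3, 40.7, 63.8, 73.8 and 64.6 RPM in place and 117, 97.4, 120 and 52.2 RPM in silent libraries. Cox7a2l, which joins complexes III and IV into supercomplexes, stood at 10.6, 28.1, 55.8, 49.2 and 14.5 RPM in place and 32.7, 42.8, 78.5 and 35.2 RPM in silent libraries. For Cox7a2 only silent replicate 4 lay inside the place range, and for Cox7a2l only silent replicate 3 lay above it. The muscle form Cox7a1 had 3 reads in place replicate 4, 20 in silent replicate 1 and 0 elsewhere, and Cox7b2, a paralog of Cox7b, had 51, 143 and 44 reads in place replicates 2 and 4 and silent replicate 2. Cox8a, the common form of subunit 8, stood at 130, 104, 83.3, 113 and 91.9 RPM in place and 153, 92.4, 183 and 71.4 RPM in silent libraries. The log2 folds were -0.66 ± 0.40 (SE) for Cox7a2, -0.74 ± 0.63 for Cox7a2l, -0.33 ± 0.45 for Cox6a1, -0.16 ± 0.37 for Cox6b1 and -0.17 ± 0.35 for Cox8a, with limma adjusted p from 0.895 to 0.974. Leaving out single libraries moved several of these: Cox7a2l was -0.43 without place replicate 1 and -0.47 without silent replicate 3. Cox6a1 was -0.06 without silent replicate 4, -0.14 without place replicate 5 and -0.72 without silent replicate 2. The signs of Cox6b1 (0.13 without silent replicate 4) and Cox8a (0.04 without silent replicate 3) turned.

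Complex V, the ATP synthase, held the members with the smallest p-values. Atp5me (subunit e) sits in the membrane part, where it helps ATP synthase form dimers. It stood at 80.2, 62.2, 80.5, 83.9 and 62.0 RPM in place and at 181, 87.6, 171 and 194 RPM in silent libraries, so that every place library was below every silent library and silent replicate 2 was close to the place range. The means were 73.7 ± 10.7 (SD, n = 5) and 158 ± 48.1 RPM (SD, n = 4), with a log2 fold of -1.04 ± 0.34 (SE; 95% interval -1.76 to -0.32; limma adjusted p = 0.895). The annotated copy Atp5k-ps2 had 106 reads in silent replicate 1, 4.17% of the reads of Atp5me there, and the sources used here do not say how reads were divided between such copies. Atp5mk, a small membrane subunit also known as DAPIT, stood at 111, 96.5, 98.8, 149 and 110 RPM in place and at 163, 163, 181 and 288 RPM in silent libraries. Here too the groups did not overlap, and the log2 fold was -0.78 ± 0.30 (limma adjusted p = 0.895).

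The F1 sector is the matrix-facing part where ATP is made. All 5 of its members, Atp5f1a to Atp5f1e, had log2 folds below 0, with a median of -0.20, and 0 of them were past the threshold. Atp5f1b, the catalytic beta subunit, had the most reads of complex V. It stood at 350, 362, 538, 515 and 411 RPM in place and at 466, 325, 524 and 746 RPM in silent libraries. Silent replicate 2 was its lowest library and silent replicate 4 its highest, and the log2 fold of -0.20 ± 0.25 (limma adjusted p = 0.934) was -0.01 without silent replicate 4, -0.13 without place replicate 1 and -0.40 without silent replicate 2. Atp5f1e, the small epsilon subunit of the central stalk, stood at 8.75, 8.95, 5.23, 20.8 and 0.106 RPM in place and at 12.0, 39.3, 55.7 and 22.6 RPM in silent libraries. Place replicate 5 was below its floor of 3 reads, and place replicate 4 was above silent replicate 1. The log2 fold of Atp5f1e, -2.09 ± 1.03 (limma adjusted p = 0.895), had a 95% interval from -4.24 to 0.06.

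The c-ring, the membrane rotor through which protons pass, is encoded by Atp5mc1, Atp5mc2 and Atp5mc3, whose mature proteins are identical. Atp5mc3 stood at 75.4, 180, 107, 188 and 222 RPM in place and at 144, 221, 256 and 326 RPM in silent libraries. Atp5mc1 stood at 44.3, 75.5, 87.3, 77.9 and 62.7 RPM in place and at 21.0, 84.6, 62.7 and 103 RPM in silent libraries. The groups overlapped for both. Atp5mc2 was near the floor of the test, at 1.57, 6.40, 7.48, 5.73 and 0.796 RPM in place and 0.498, 2.24, 1.78 and 1.61 RPM in silent libraries. Per kilobase of exon, Atp5mc3 made up 77.7%, 81.2%, 68.9%, 81.7% and 88.5% of the 3 genes' summed level in place and 93.5%, 84.5%, 89.5% and 87.2% in silent libraries. Place replicate 5 lay inside the silent range and the other 4 place libraries below it. These shares depend on the exon lengths used, 4.91 kilobases for Atp5mc1 and 2.18 for Atp5mc3. In RPM, without division by length, Atp5mc3 was also the highest of the 3 genes in every library. The log2 folds were -0.66 ± 0.35 (SE) for Atp5mc3, 0.21 ± 0.48 for Atp5mc1 and 0.90 ± 0.89 for Atp5mc2, with limma adjusted p of 0.895, 0.973 and 0.918. Without place replicate 1 the Atp5mc3 fold was -0.43, and without silent replicate 1 that of Atp5mc1 was -0.27.

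The remaining complex V members all overlapped between the groups. In the peripheral stalk, which keeps the F1 sector from turning, Atp5pb, Atp5pd and Atp5po had log2 folds of -0.35, -0.19 and -0.04 and Atp5pf 0.42. The membrane subunits Atp5mg, Atp5mj and Atp5mf had -0.60, -0.35 and 0.25. Atp5if1, the inhibitor that blocks ATP hydrolysis, stood at 60.9, 40.5, 39.9, 44.6 and 64.2 RPM in place and at 68.8, 43.5, 46.3 and 50.5 RPM in silent libraries, with a log2 fold of -0.07 ± 0.44 (limma adjusted p = 0.991). The annotated copy Atp5pb-ps had 230 reads in silent replicate 1, 7.97% of those of Atp5pb in that library.

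Other genes of the pathway were described from lists, with 0 genes past the threshold in each list and, over all genes, the shares given above. Complex I, which feeds electrons from NADH into the chain, had 28 of 36 subunits below 0 and a median log2 fold of -0.26. Its sums were 1860 to 2490 RPM in place and 2310 to 2750 RPM in silent libraries, and overlapped. Within it Ndufs1, the large iron-sulfur subunit of the electron-input arm, had a fold above 0 (0.75 ± 0.31, SE; limma adjusted p = 0.895), while Ndufa6 had -0.93 ± 0.46. Assembly factors of complexes II to V had 20 of 33 below 0 (median -0.25), among them Cox14 (-0.70 ± 0.36), needed to build complex IV, and Uqcc2 (-1.22 ± 0.68), needed to build complex III.

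Mitochondrially encoded subunits had 1 of 7 tested below 0 and a median of 0.30. The tricarboxylic acid cycle with pyruvate dehydrogenase had 8 of 15 below 0 (median -0.11), with Sucla2, a succinyl-CoA synthetase subunit, at -0.77 ± 0.35 (SE; limma adjusted p = 0.895). Carriers and channels of ATP and substrates had 6 of 9 below 0 (median -0.11) and glycolysis 5 of 16 (median 0.07). Regulators of respiratory gene transcription and mitochondrial DNA expression had 5 of 13 below 0 (median 0.19), with Yy1 at -1.37 ± 0.75. Cytosolic ribosomal proteins, another set of short and abundant transcripts, had 47 of 82 below 0 and a median of -0.16, with sums of 2890 to 3170 RPM in place and 3130 to 3550 RPM in silent libraries, which overlapped narrowly. Among marker lists, all 9 oligodendrocyte and all 4 tested astrocyte markers were above 0 (medians 2.61 and 1.20), with 0 past the threshold. All 5 CA3 pyramidal markers tested were above 0 as well (median 0.81). Of the excitatory neuron markers 5 of 6 were below 0 (median -0.27), and of the CA1 pyramidal markers 6 of 7 (median -0.20), a median like that of the members (-0.20). The part of these markers in the members' folds was not tested.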

How the data were processed

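RNA-seq was made from 9 libraries with the SMART-Seq mRNA LP kit, per the labels' protocols. STAR, HTSeq and GRCm39 are named in the submitters' processing notes, without versions, roles or order. The table deposited by the authors holds a normalised read signal per gene symbol. Its scaling is not given in the sources used here. In 30998 of 31052 genes (99.83%), all 49 members among them, the deposited signal values were whole multiples, within 0.05 reads, of 1 number per gene, and dividing by it gave the reads used here. That number was taken as a TMM factor of the gene across libraries, relative to the gene Ezh2, which was worked out from the values. The recovery and the fit were tested on simulated data.

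Reads were scaled to reads per 1000000 of each library's total, genes with at least 1 RPM in at least 4 libraries were kept (14142), and limma 3.58.1 in R 4.3.3 was fitted with a trend on log2(RPM + 1), place minus silent, without covariates, with Benjamini-Hochberg adjustment (threshold 0.05). Folds are on that scale and understate the change of low genes. Depth was 14.0 to 22.4 times 1000000 recovered reads, and intervals of 95% come from limma. Ranges, sums and medians used Python 3.11.15 with pandas 2.3.3 and numpy 2.4.6. Exon lengths are unions of GENCODE M21 exons (GRCm38), matched by symbol or RefSeq synonym, and were used for lengths only. The ribosomal list leaves out the Rps6k kinases.

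The genes given in every library are all of complex II, Cyc1, Cycs, the 3 members with the smallest p and the 1 with the highest RPM in complexes III to V, and the paralog sets; Atp5if1 and Cox7b2 were added after their values were seen, and the other members are given by their folds. From each other list 1 or 2 genes with the smallest p may be named. Members and lists were chosen with earlier results of these data known. Alternatives covered scaling, pseudocount, filter, tool, a covariate for genes detected and libraries left out.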

Additional observations from a re-analysis of the deposited data

Results flagged for a closer look

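Member levels were searched for a library whose gap to its nearest neighbour took most of its group's range, in 96 groups of 4 or 5 libraries; chance flags about 1 in 20 groups. Atp5mk stood out in place replicate 4 at 149 RPM, where the next library was at 111 RPM, and in silent replicate 4 at 288 RPM, where the next was at 181 RPM. Uqcrb stood out in place replicate 4 at 67.7 RPM, with the next library at 35.3 RPM. Uqcrfs1 stood out in silent replicate 1 at 207 RPM, with the next library at 69.6 RPM. In each of these cases the library that stood out was the highest of its group. All these flags are in tested members. Untested members with reads in few libraries also match the description but are not listed. Cox6a2 had reads in place replicate 2 only, and Cox4i2 stood at 7.33 RPM in silent replicate 1, against at most 0.0613 RPM in the other silent libraries.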

How the results depend on the processing

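Members past an adjusted p of 0.05 numbered 0 in all 21 alternatives run. Genes past it numbered 0 except 3 with array weights (the sex-linked Ddx3y, Eif2s3y and Xist) and 2 without place replicate 1 (Ddx3y and Eif2s3y), so leaving out each library gave 0 to 2. No alternative included sex as a covariate. The members' median log2 fold stayed below 0 in all 21, from -0.34 (without silent replicate 2) to -0.17 (without silent replicate 4) when 1 library was left out. Quantile normalisation moved the median of all genes by -0.14, to -0.01; the members' median was then -0.24, with 35 of 44 below 0. Leave-one-out ranges of the complex medians were 0.10 to 0.58 (II), -0.60 to -0.41 (III), -0.40 to -0.17 (IV) and -0.34 to -0.11 (V).

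The sign turned in at least 1 alternative for 9 of the 25 named members tested, and the cause was not tested. As deposited, without library scaling, Sdhc was 0.011, and with quantile normalisation Atp5mc2 was -0.037. With a covariate for genes detected, Sdha was -0.22, Sdhc 0.36, Cox6c 0.23, Atp5mc1 -0.30 and Cox6a1 0.077. Without the 3 libraries set apart, Sdha was -0.013, Sdhc 0.50, Cox6c 0.062, Atp5mc1 -0.19 and Cox6a1 0.062. Leaving out 1 library gave ranges of -0.18 to 0.30 for Sdha, -0.56 to 0.25 for Sdhc, -0.081 to 0.16 for Cyc1, -0.30 to 0.040 for Cox6c, -0.27 to 0.48 for Atp5mc1, -0.41 to 0.042 for Cox8a and -0.54 to 0.13 for Cox6b1. No paired analysis was possible because the labels give the groups no shared replicate numbers. The planned edgeR and DESeq2 alternatives were not run; voom on the recovered reads was, with 0 members past the threshold and a smallest adjusted p among them of 0.833. Atp5f1e had 2 reads in place replicate 5, under the floor of 3 reads, against 100 to 909 reads in the other libraries. Place replicate 5 had more recovered reads in total than silent replicate 1, where Atp5f1e had 169. The restricted paralogs had 0 reads in most libraries. The part of depth in these low counts was not tested.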
